A study of Mus musculus with 4 samples.

Results

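The differential peaks of H3K27me3 between chronic intermittent hypoxia (CIH) and room air (RA) in mouse aorta macrophages are described here. All 146 regions of the deposited H3K27me3 list were taken, out of 21089 differential regions that the study's lists of both histone marks held together. The other 20943 regions belonged to H3K9ac, a mark of active chromatin. A sign in the list gave each region's direction, which was CIH for 53 H3K27me3 peaks and RA for 93. The deposited list holds fewer H3K27me3 peaks in total than the study's text counts, with fewer for CIH but more for RA. These numbers and the split by direction therefore describe the deposited list alone.

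The study used C57BL/6J mice, kept either in CIH or in RA for 20 weeks. In CIH, oxygen was at 6.1% and at 21% in turn, 90 seconds each, during the light phase and at 21% at night, while RA mice breathed 21% oxygen throughout in matching cages. CD11b+ cells were taken from dissociated aortas with magnetic beads, and chromatin was immunoprecipitated and sequenced (ChIP-Seq). CD11b is carried by monocytes and neutrophils as well as macrophages, so the sort by itself did not single out macrophages. The library comparison was 1 H3K27me3 library from CIH against 1 from RA, with few cells per mouse, and there was no replicate error. Every difference below is therefore a description of 2 libraries, with no test and no p-value. The study gives the number of animals per condition for its epigenetic experiments together, and whether animals were pooled into a library is not given in the sources used here. The title of the RA library spells the mark H3K72me3, while its antibody label reads H3K27me3, and it was treated as H3K27me3.

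H3K27me3, trimethylation of lysine 27 of histone H3, is written by Polycomb repressive complex 2, whose catalytic subunit is EZH2 or EZH1. It is read by Polycomb repressive complex 1 and is known for keeping developmental genes silent, often as broad domains over CpG islands of promoters. In differentiated cells such as macrophages it covers genes of other lineages, whereas H3K9ac marks active promoters and enhancers.

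The study's supplementary list of H3K27me3 peaks pairs 117 of the 146 peaks with genes (40 in the CIH direction and 77 in the RA direction) and gives the sequence of each. All 117 matched the deposited list in name, position and direction. They named 145 genes, with 75 peaks paired with 1 gene, 41 with 2 and 1 with 3. The pairing reached far along the chromosome: Dnajb9, which encodes a chaperone of the endoplasmic reticulum, was paired with peaks 2.4 Mb apart. The other 29 peaks, 13 of them in the CIH direction, had no gene paired in that list. Neither the deposited list nor the values used here give a level per library. The supplementary list also holds counts and p-values, which were not used. The direction is therefore the one measurement of each peak used here besides its place and width.

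The sequences below, copied from the supplementary list for build mm9, show the kinds of peak that recur in the results. The strand of these sequences is not given in the sources used here. Lifr, a cytokine receptor gene, has its peak at chr15:7036301-7036600, and Gjb5, a connexin gene, has its peak at chr4:127083751-127084050. Both were higher in CIH, lay on H3K9ac peaks, and are shown because much of each is written as N, in capitals.

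Lifr, higher in CIH: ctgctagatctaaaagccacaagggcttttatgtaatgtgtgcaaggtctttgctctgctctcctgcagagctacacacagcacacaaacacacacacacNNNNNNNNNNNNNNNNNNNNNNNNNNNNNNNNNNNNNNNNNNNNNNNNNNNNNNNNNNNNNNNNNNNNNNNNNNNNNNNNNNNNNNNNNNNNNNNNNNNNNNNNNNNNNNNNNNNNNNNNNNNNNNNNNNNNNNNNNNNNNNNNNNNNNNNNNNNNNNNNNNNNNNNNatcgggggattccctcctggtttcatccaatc

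Gjb5, higher in CIH: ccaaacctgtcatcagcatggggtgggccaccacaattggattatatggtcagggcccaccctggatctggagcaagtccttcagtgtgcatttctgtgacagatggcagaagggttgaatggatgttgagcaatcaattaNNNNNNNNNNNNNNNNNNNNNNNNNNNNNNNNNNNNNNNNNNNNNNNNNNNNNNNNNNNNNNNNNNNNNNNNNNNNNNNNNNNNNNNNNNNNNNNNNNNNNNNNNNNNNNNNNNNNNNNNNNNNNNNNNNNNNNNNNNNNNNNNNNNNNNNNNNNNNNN

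The peak of Capn6, at chrX:140256351-140256650, also lay on an H3K9ac peak and is shown because both marks had the same first and last base there, with no N and no capitals used.

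Capn6, higher in CIH: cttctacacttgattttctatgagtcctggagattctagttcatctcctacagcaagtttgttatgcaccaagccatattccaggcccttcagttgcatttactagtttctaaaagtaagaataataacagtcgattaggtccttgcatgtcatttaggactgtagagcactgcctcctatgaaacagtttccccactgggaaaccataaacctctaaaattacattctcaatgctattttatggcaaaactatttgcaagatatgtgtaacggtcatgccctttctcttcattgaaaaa

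The peaks of Spic, a transcription factor gene of red pulp macrophages, at chr10:88051251-88051500, and Macrod2, at chr2:140851151-140851400, were higher in CIH away from H3K9ac. They are shown for the run of T near their middle, in capitals.

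Spic, higher in CIH: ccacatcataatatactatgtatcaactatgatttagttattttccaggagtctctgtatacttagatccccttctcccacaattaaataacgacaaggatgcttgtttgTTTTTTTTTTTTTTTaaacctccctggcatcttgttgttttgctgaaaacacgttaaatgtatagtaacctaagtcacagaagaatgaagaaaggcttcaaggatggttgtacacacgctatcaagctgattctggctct

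Macrod2, higher in CIH: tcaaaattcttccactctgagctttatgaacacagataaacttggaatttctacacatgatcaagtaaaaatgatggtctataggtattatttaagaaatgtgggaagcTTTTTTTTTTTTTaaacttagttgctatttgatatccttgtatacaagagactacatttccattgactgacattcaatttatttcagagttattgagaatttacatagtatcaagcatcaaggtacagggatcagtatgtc

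Ptprc, which encodes the leukocyte phosphatase CD45, had a peak whose first 300 bases, at chr1:140056301-140056600, are shown without capitals because the gene marks all leukocytes.

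Ptprc, higher in CIH: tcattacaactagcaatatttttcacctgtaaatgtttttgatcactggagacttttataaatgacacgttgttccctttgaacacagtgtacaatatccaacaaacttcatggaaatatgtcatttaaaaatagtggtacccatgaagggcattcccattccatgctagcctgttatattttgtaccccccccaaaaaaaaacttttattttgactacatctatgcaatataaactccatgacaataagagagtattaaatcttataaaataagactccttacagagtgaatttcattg

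Sv2c, a synaptic vesicle gene, had a peak higher in CIH at chr13:96975101-96975400 that ran straight into a peak higher in RA at chr13:96975401-96975700. The 2 sequences are consecutive and are shown, without capitals, as an example of opposite neighbours.

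Sv2c, higher in CIH: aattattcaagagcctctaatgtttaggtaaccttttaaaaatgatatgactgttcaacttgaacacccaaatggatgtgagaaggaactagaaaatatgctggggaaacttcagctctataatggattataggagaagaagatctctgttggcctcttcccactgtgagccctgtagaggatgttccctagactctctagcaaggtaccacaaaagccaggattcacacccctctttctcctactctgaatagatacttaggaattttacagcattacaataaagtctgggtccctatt

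Sv2c, higher in RA: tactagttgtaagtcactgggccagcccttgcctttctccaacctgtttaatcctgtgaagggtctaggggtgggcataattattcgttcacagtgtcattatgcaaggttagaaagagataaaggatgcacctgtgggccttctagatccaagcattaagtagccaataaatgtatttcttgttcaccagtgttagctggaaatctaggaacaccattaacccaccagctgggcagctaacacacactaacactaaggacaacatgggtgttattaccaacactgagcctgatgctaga

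Grin2d, which encodes a subunit of the NMDA-type glutamate receptor, and Kdelr1, which encodes a receptor that returns proteins to the endoplasmic reticulum, shared a peak higher in CIH at chr7:53126401-53126650. Srrm4, a regulator of neuronal splicing, had a peak higher in RA whose first 300 bases are at chr5:116896501-116896800. They are shown because both have a GC content over 50%, with each CG in capitals.

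Grin2d and Kdelr1, higher in CIH: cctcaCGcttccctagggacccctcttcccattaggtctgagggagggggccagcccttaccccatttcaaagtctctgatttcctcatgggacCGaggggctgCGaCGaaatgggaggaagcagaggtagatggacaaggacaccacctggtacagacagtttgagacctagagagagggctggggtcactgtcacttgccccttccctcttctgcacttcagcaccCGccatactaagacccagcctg

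Srrm4, higher in RA: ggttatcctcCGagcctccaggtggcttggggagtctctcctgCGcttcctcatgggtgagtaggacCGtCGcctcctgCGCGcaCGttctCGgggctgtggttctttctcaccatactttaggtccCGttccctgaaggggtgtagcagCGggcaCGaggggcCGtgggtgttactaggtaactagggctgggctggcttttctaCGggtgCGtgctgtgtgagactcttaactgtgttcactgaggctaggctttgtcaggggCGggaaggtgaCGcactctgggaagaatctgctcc

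Peaks of both directions were short, and the wide ones were higher in RA. Peaks were placed in steps of 50 bp. Widths ran from 250 to 450 bp among the 53 peaks higher in CIH and from 50 to 600 bp among the 93 higher in RA. In the CIH direction, 1 was at least 400 bp wide (1.89%, exact 95% interval 0.0478 to 10.1%), the Pard3 peak of 450 bp, paired with a gene of cell polarity. In the RA direction, 38 were at least 400 bp wide (40.9%, 30.8 to 51.5%). All 10 peaks of at least 500 bp were higher in RA, and they included Gabbr2, a GABA receptor subunit gene, at 600 bp and Hivep3, a zinc finger gene, at 550 bp. The 6 peaks of at most 200 bp were also higher in RA, among them Flrt2, a membrane protein gene of cell adhesion, at 100 bp. The intervals, here and below, cover counting only, and neighbouring peaks are not independent. The study reports a larger sequencing yield for the CIH library of this mark than for the RA library. The part of that difference in the widths and in the split by direction was not tested.

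**Figure D1:**
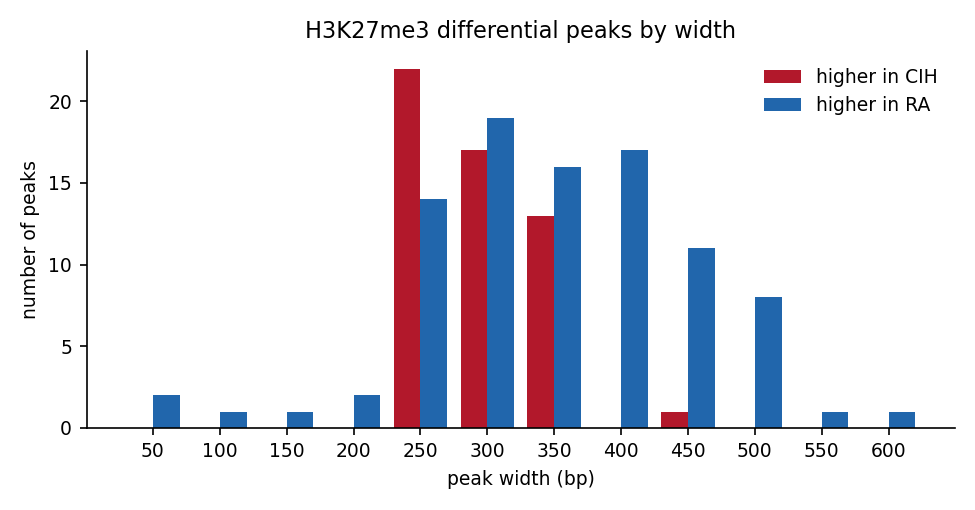
Number of H3K27me3 differential peaks (vertical axis) by width, in bp on the horizontal axis. Red stands for the CIH direction and blue for the RA direction. The red bars lie between 250 and 450 bp, while the blue bars reach from 50 to 600 bp, with 17 blue and no red at 400 bp.

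The peaks were scattered over the genome. Chromosomes 1 to 18 and X each had at least 4 peaks, and no peak lay on chromosomes 19, Y or M, where the H3K9ac list had 604, 4 and 2. Chromosome 16 had the most, with 14 peaks or 9.59% of the list, where H3K9ac had 4.08% of its peaks, and chromosome 11 had 4 peaks or 2.74% against 6.83%. Chromosome 1 had 7 peaks higher in CIH and 5 in RA, and chromosome 14 had 1 and 7. Each of these shares rests on few peaks. The peak names were numbered in order along the genome, from 873 to 197338, and what the numbers between stand for is not given in the sources used here.

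Genes paired with the peaks fell into 14 classes, set by what each gene is known to do, and a peak with genes of several classes was counted in each. Among all 117 paired peaks, 34.2% were higher in CIH (25.7 to 43.5%). The exact interval of 13 of the 14 classes held that share. The exception was calcium handling, with 4 peaks and an interval from 39.8 to 100%. That class was formed with the directions known, and all the classes with earlier results of these data known. Where a class lies against the share is therefore a description and not a test.

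**Figure D2:**
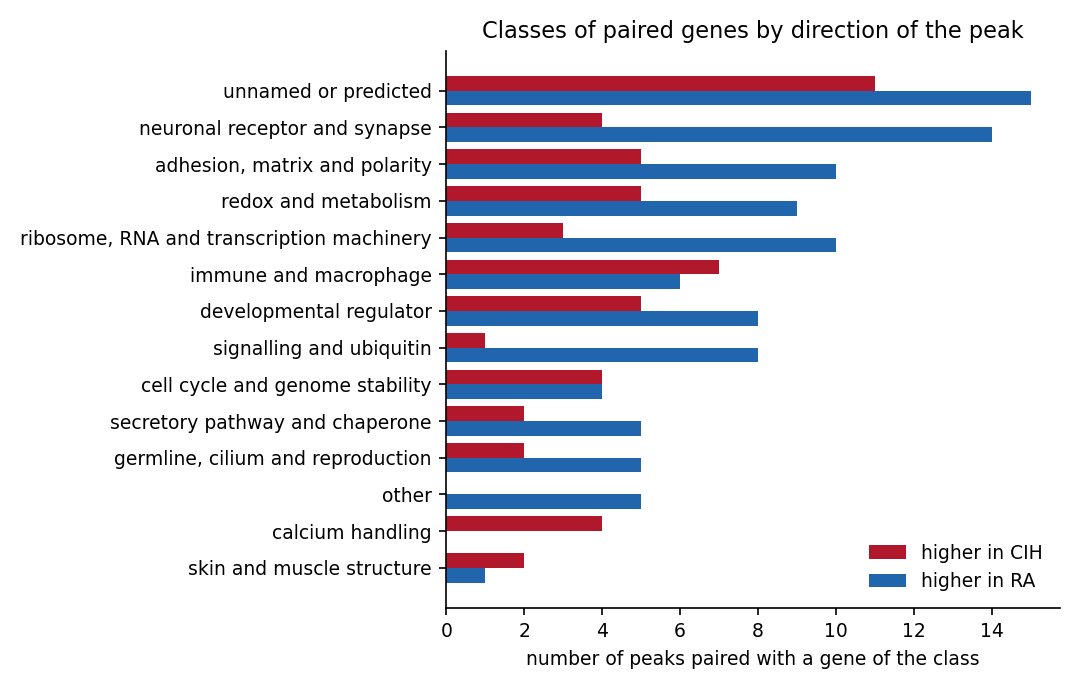
Number of H3K27me3 peaks paired with a gene of each class (horizontal axis) for 14 classes (vertical axis), red for the CIH direction and blue for the RA direction. Neuronal genes had 4 red and 14 blue peaks, immune genes 7 and 6, and calcium handling 4 and 0.

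Immune and macrophage genes had 13 peaks, 7 higher in CIH and 6 in RA, a share of 53.8% in CIH whose interval ran from 25.1 to 80.8%. The widest of those higher in CIH was the Ptprc peak at 350 bp, followed at 300 bp by Lifr, by Il22ra2, which encodes a soluble receptor that binds IL-22, and by the beta-defensin genes Defb19 and Defb45. The peaks of Spic, of Ly96, which encodes the partner of Toll-like receptor 4 in sensing endotoxin, and of Nlrp9b, an inflammasome receptor gene, were 250 bp wide. Of these 7 peaks, the Lifr peak alone lay on an H3K9ac peak, against 18 of all 40 paired CIH peaks (45%). For Ptprc and Spic the nearest H3K9ac peak was 77 and 77.8 kb away. Higher in RA were Hivep3 at 550 bp, Frk, a tyrosine kinase gene, and Ly6e, a membrane protein gene, both at 450 bp, and Pou2f2, a transcription factor gene of lymphoid and myeloid cells, at 300 bp. The defensin and Nlrp9b loci had a peak in each direction. Without them, 5 immune peaks had the CIH direction and 4 the RA direction.

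Of 9 markers of macrophages, Ptprc, Csf1r, Adgre1, Itgam, Cd68, Cd14, Cd36, Spi1 and Spic, 2 were paired with a peak, Ptprc and Spic. Both peaks were higher in CIH, as were 34.2% of all paired peaks, and 2 genes are too few to describe a direction. A list of differential peaks of a repressive mark gives no level of these genes, so it does not check the cell type that the labels give.

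Genes of neuronal receptors and synapses had 18 peaks, the most among the classes of named genes. Of these, 4 were higher in CIH and 14 in RA (22.2% in CIH, 6.41 to 47.6%), and the interval holds the 34.2% of all paired peaks. The class was drawn broadly and took in Ank2, Cdkl4, Dcdc5, Kcne2 and Olfr9, whose place among neuronal receptor and synapse genes was not checked. The number of peaks depends on that choice, and the share of all genes in the class was not computed. Higher in RA and widest were Gabbr2 at 600 bp and, at 500 bp, Ank2, an ankyrin gene, Cdkl4, a kinase gene, Dcdc5, and Glra1, a glycine receptor subunit gene, whose peak was also paired with the neuromedin receptor gene Nmur2. In all, 9 of the 14 were at least 400 bp wide, and none of the 4 higher in CIH was. Over the whole list, 38 of 93 RA peaks (40.9%) and 1 of 53 CIH peaks (1.89%) were that wide. Those higher in CIH included Sv2c, Grin2d and the limbic adhesion gene Lsamp. Sv2c and Grin2d also had a peak higher in RA.

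Calcium handling was the one class with every peak higher in CIH, 4 of 4 (100%, 39.8 to 100%). Its peaks were paired with Atp2b1, a calcium pump of the plasma membrane, Rcan2, an inhibitor of calcineurin, Capn6, a member of the calpain family, and Efcab2, a gene with an EF-hand domain. The Efcab2 peak was also paired with Hnrnpu and Gm28062. The other 3 lay on H3K9ac peaks, as did 18 of all 40 paired CIH peaks (45%). The class was formed with the directions known, so the count is a description of these 4 peaks. For Capn6 and Efcab2 only a family and a domain are given, so the class name is not shown to hold for them. Each gene was put in a single class, so genes sorted elsewhere that may also act on calcium were not counted here.

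Developmental regulators, the kind of gene that Polycomb is best known for, had 13 peaks, 5 higher in CIH and 8 in RA (38.5% in CIH, 13.9 to 68.4%). Higher in RA and widest, at 450 bp, were the homeobox genes Irx1 and Msx1 and the Wnt pathway gene Dact2, followed at 400 bp by the forkhead gene Foxl1 and by Trib2. Higher in CIH were Fzd7, a Wnt receptor gene, at 350 bp, Atoh1, a transcription factor gene of neural precursors, at 300 bp, and Mixl1, Tbx15 and Bcor at 250 bp. Fzd7, Atoh1 and Bcor of these lay on H3K9ac peaks, as did 18 of all 40 paired CIH peaks (45%). Bcor, whose protein is part of a Polycomb repressive complex 1, had a second peak, higher in RA, 392 kb from the first.

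Adhesion, matrix and polarity genes had 15 peaks, 5 higher in CIH and 10 in RA (33.3% in CIH, 11.8 to 61.6%). Besides Pard3, the widest were the RA peaks of Galnt13, which encodes an enzyme of O-glycosylation, at 500 bp, of Hs3st5, a heparan sulphate enzyme gene, and Prom1, at 450 bp, and of the Eph receptor gene Epha6 and the phosphatase gene Ptpro at 400 bp. The Hs3st5 peak is the Frk peak named above among immune genes. Redox and metabolism genes had 14 peaks, 5 higher in CIH and 9 in RA (35.7%, 12.8 to 64.9%). Srd5a1, a steroid reductase gene, was widest in RA at 450 bp. Galc, which encodes a lysosomal enzyme, and Gpx7, of the glutathione peroxidase family, were widest in CIH at 350 bp.

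Genes of ribosomes, RNA and transcription had 13 peaks, 3 higher in CIH and 10 in RA (23.1%, 5.04 to 53.8%). The ribosomal protein genes Rpl14, Rps15a and Rps29 had peaks of 350, 350 and 250 bp, each higher in RA, and Atf7 and Larp7 had peaks of 500 bp in the same direction. The Larp7 peak is the Ank2 peak named above among neuronal genes, and the Rps15a peak was also paired with Xylt1 of the adhesion class. Signalling and ubiquitin genes had 9 peaks, 1 higher in CIH and 8 in RA (11.1%, 0.281 to 48.2%). Their only CIH peak was that of Efr3a, which touched an RA peak of the same gene, and the widest RA peaks were those of Arl15, Csnk1g3 and Hace1 at 400 bp. The Hace1 peak was also paired with Grik2 of the neuronal class.

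The remaining named classes were small. Cell cycle and genome stability genes had 4 peaks in each direction, with Cdkal1 and Cdca7l among those higher in CIH and Cep112, Fhit and the BRCA1 partner Bard1 among those in RA. Secretory pathway and chaperone genes had 2 and 5, and germline, cilium and reproduction genes also had 2 and 5, the latter with the FSH receptor gene Fshr in RA at 400 bp. Skin and muscle structure genes had 2 and 1, and 5 peaks of other genes were all higher in RA (0% in CIH, 0 to 52.2%). Genes known only by a RIKEN or predicted symbol had 26 peaks, more than any class of named genes, with 11 higher in CIH and 15 in RA (42.3%, 23.4 to 63.1%).

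Gene lists set by pathway touched the peaks in few places. Of 21900 protein-coding genes in RefSeq, 127 were paired with a peak (0.58%), so even the longest list, of 39 genes, would hold fewer than 1 at that share. The lists were chosen with the paired genes known, so a list with 1 or 2 paired genes is not shown to stand above it, nor one with none below it. None of 39 Hox genes, the classic Polycomb targets, was paired with a peak. Of 24 macrophage identity genes, Ptprc and Spic had a peak, both higher in CIH, and of 16 genes of the endotoxin receptor complex and Toll-like receptors, Ly96 did. Of 17 lipid genes of the LXR, RXR and PPAR receptors, Mylip, which encodes the ligase that degrades the LDL receptor, had a peak higher in RA. Among 18 glutathione genes, Gpx7 had a peak higher in CIH and Mgst2, a microsomal glutathione transferase gene, a peak higher in RA. Among glutamate receptor genes, Grik2 had a peak in RA and Grin2d had peaks in both directions, and of 19 GABA and glycine receptor genes, Gabbr2 and Glra1 had peaks in RA. Of 14 genes of Polycomb complexes, Bcor had a peak in each direction. A gene with no peak here may still carry the mark at a like level in both libraries.

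In 7 places a peak higher in CIH and a peak higher in RA touched, end to end, and no touching pair had the same direction. Whether the peak calling joins touching stretches of the same direction into a single peak is not given in the sources used here. The lack of such pairs is therefore not read as a result. The pairs lay at Sv2c, Efr3a, Defb19 with Defb45, Ceacam20 with Nlrp9b, C130060K24Rik and 4931428F04Rik, and at a place on chromosome 5 with no paired gene. The CIH peaks were 250 to 300 bp wide and the RA peaks 200 to 300 bp, so that a pair spanned 450 to 600 bp. In 6 of the 7 the CIH peak came first along the chromosome, the place on chromosome 5 being the exception. The names of the 2 peaks were consecutive in all 7. None of the pairs lay on an H3K9ac peak, and the nearest one was 2.15 to 315 kb away.

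At Grin2d and Kdelr1 the CIH and RA peaks, each 250 bp, were 50 bp apart. At Mb21d2, 2 peaks 50 bp apart were both higher in RA. At Rprm, which encodes a cell cycle inhibitor, and Galnt13, an RA peak of 500 bp and a CIH peak of 300 bp were 19.7 kb apart. With Bcor, this made 13 genes with a peak in each direction, among 57 genes paired with a CIH peak and 101 paired with an RA peak.

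**Figure D3:**
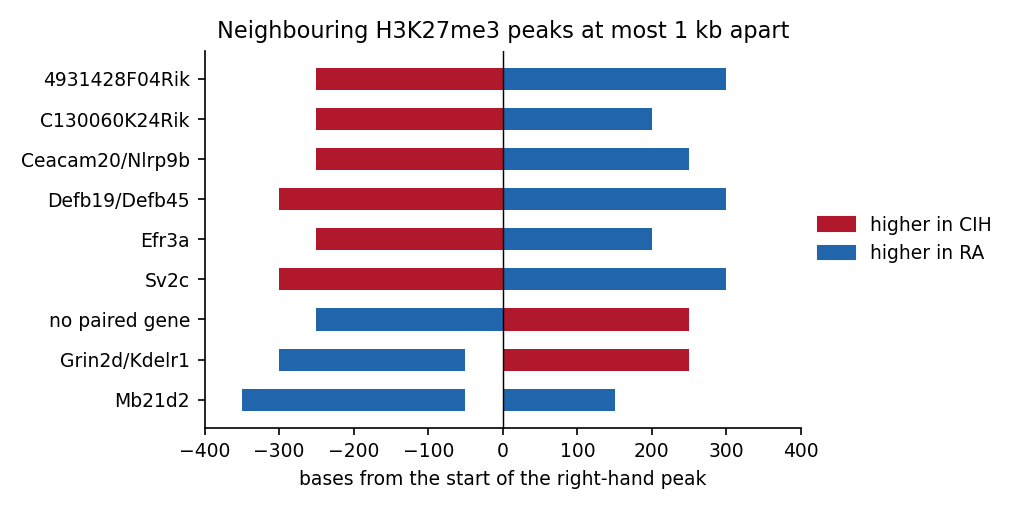
H3K27me3 peaks at most 1 kb from a neighbour, drawn to scale in bases from the start of the right-hand peak (horizontal axis), 1 pair per row with its paired genes (vertical axis), red for higher in CIH and blue for higher in RA. In 7 rows a red and a blue bar touch, at Grin2d and Kdelr1 they are 50 bp apart, and at Mb21d2 both bars are blue.

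Peaks on an H3K9ac peak were more frequent in the CIH direction of this list than in the RA direction. At least 1 shared base counted as an overlap. Of the 53, 29 shared bases with an H3K9ac peak (54.7%, 40.4 to 68.4%), and 4 of the 93 higher in RA did (4.3%, 1.18 to 10.6%). In each of the 29, an H3K9ac peak that shared bases was also higher in CIH, and the Rcan2 peak also reached onto an RA peak of H3K9ac. These counts are not set against the share of all H3K9ac peaks higher in CIH. Nor are they set against the share of the genome that H3K9ac peaks cover. Whole coverage by H3K9ac peaks held for 26 of the 29, and 8 had exactly the same first and last base as the H3K9ac peak. These 8 included Capn6, Atp2b1, the keratin-associated genes Krtap4-2 and Krtap4-7, and Gm29398. The 3 peaks covered in part, each by at least 250 bp, were those of Rprm with Galnt13, of Gpx7 with Zcchc11, and 1 on chromosome 2 with no paired gene.

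Among the peaks higher in RA, 3 of the 4 overlaps were partial. The Morc1 peak shared 300 of its 350 bp, and the Srrm4 peak 250 of its 400 bp, with an H3K9ac peak higher in CIH. The Nufip1 peak shared 150 of its 450 bp with an RA peak of H3K9ac, and a peak on chromosome 12 with no paired gene spanned 2 H3K9ac peaks of opposite direction. No RA peak had the same ends as an H3K9ac peak.

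Away from the overlaps, both directions lay far from H3K9ac. The nearest H3K9ac peak was a median of 71 kb from the other 24 CIH peaks, with a range of 1.45 to 315 kb, and 65.2 kb from the other 89 RA peaks, with a range of 0.2 to 722 kb. More than 10 kb separated 19 of the 24 and 74 of the 89 from H3K9ac. Among the peaks off H3K9ac, 21.2% were higher in CIH, against 36.3% in the whole list. Of the 13 CIH peaks with no paired gene, 11 lay on an H3K9ac peak (84.6%, 54.6 to 98.1%), and of the 40 with one, 18 did (45%, 29.3 to 61.5%).

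**Figure D4:**
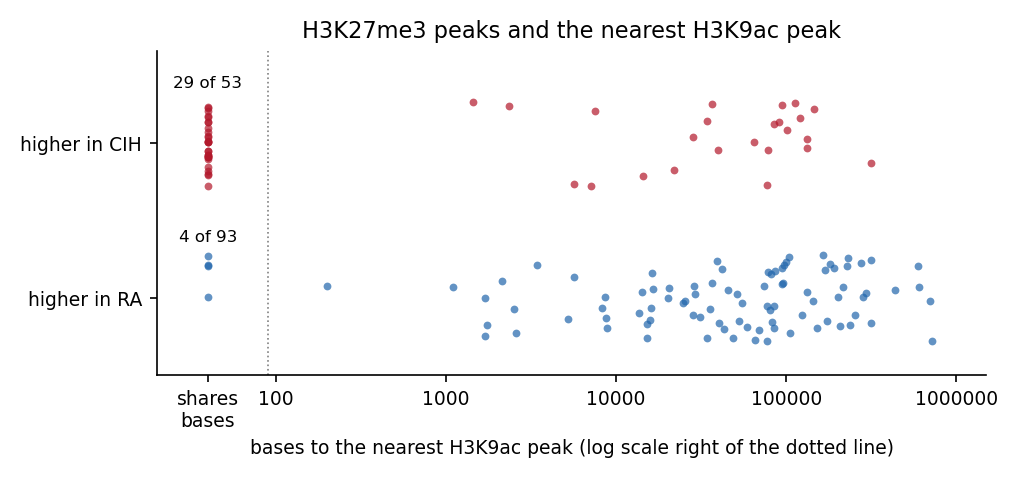
Distance in bases from each H3K27me3 peak to the nearest H3K9ac peak (horizontal axis, log scale right of the dotted line), with peaks that share bases with an H3K9ac peak at the far left, for peaks higher in CIH (red) and in RA (blue), 1 point per peak with random vertical spread. Of the red points, 29 of 53 lie at the far left, and 4 of 93 blue points do.

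The sequences of the CIH peaks on H3K9ac stood apart by their N letters, such as those printed above for Lifr and Gjb5. Why letters are written as N is not given in the sources used here. Of the 18 CIH peaks on H3K9ac with a sequence, 11 held N letters (61.1%, 35.7 to 82.7%), and these made up 21.5% of their letters. Of the 22 CIH peaks off H3K9ac, 1 did (4.55%, 0.115 to 22.8%), the peak of Mixl1 and Acbd3. Of the 74 RA peaks off H3K9ac, 11 did (14.9%, 7.66 to 25%), with 2.77% of their letters. The RA peak on H3K9ac with N letters was that of Morc1, 1 of 3.

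The share of N was 63.2% in the peak of Bcor and Gm4906, 56% in that of Lifr, 53% in that of Gjb5, 37.4% in that of Atp2b1 and 28.3% in that of Fzd7. Galc had 25.1%, the peak of Krtap4-2 and Krtap4-7 22.3% and that of Rcan2 18%. In the Lifr peak the N letters follow a stretch of alternating C and A, as the sequence above shows. Among peaks higher in RA, the highest shares were 62.8% for Nlrp9b and Ceacam20, 34.6% for Frk and Hs3st5, 27.7% for Mylip and 27.1% for the kinase gene Lmtk2. Of the 3 calcium genes on H3K9ac, Atp2b1 and Rcan2 had N letters and Capn6 had none. The part of such sequence in the overlap and in the direction was not tested.

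**Figure D5:**
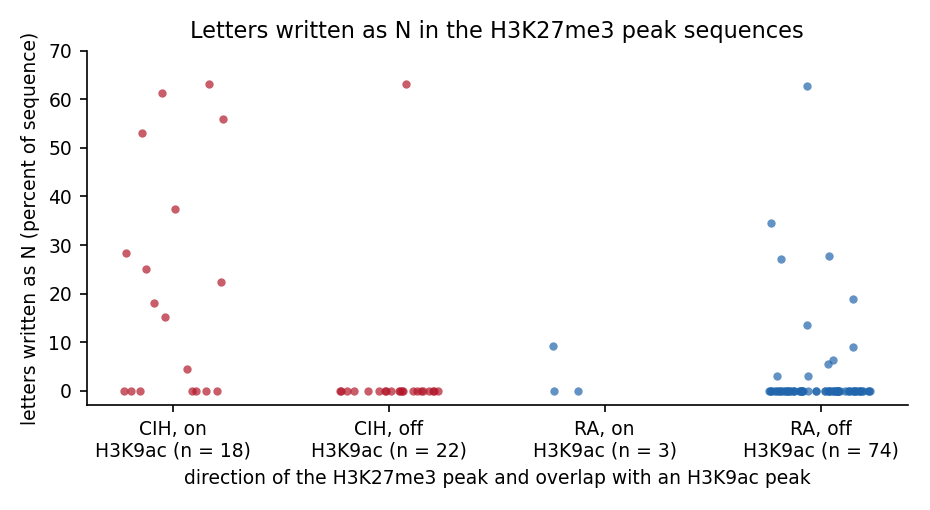
Letters written as N as a percent of each peak's sequence (vertical axis) for H3K27me3 peaks higher in CIH (red) and RA (blue), on or off an H3K9ac peak (horizontal axis), 1 point per peak with random horizontal spread. Of the CIH peaks on H3K9ac 11 of 18 lie above 0, and of those off H3K9ac 1 of 22 does.

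The CIH peaks that neither lay on H3K9ac nor had an RA peak within 1 kb numbered 16, and 15 of them had a paired gene. They included Ptprc, Spic, Ly96, Il22ra2, Lsamp, Tbx15, Hao1, which encodes a peroxisomal oxidase, and Pard3. In 5 of the 15 the sequence held a run of at least 12 A or T, namely 15 T in Spic, 13 T in Macrod2, 12 T in Gm28703, 13 A in the Hnrnpu peak and 14 A in Pard3. In Spic the run began at base 111 of 250, in Macrod2 at base 110 and in Gm28703 at base 110. In the Hnrnpu peak it began at base 133 of 300.

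Over the whole list, 6 of 40 CIH peaks (15%, 5.71 to 29.8%) and 7 of 77 RA peaks (9.09%, 3.73 to 17.8%) held a run of at least 12 of 1 base. The RA peaks were those of Dnajb9 with 17 T, of Olfr9 with 15 T, of Pvt1 with 18 A, of Dcdc5 with 13 T, of Dact2 with 12 A, and of Clybl and Tmem189 with 14 and 12 C. Of the 10 such peaks whose sequence is held whole, 8 had a run of A or T. The middle of the run was within 21 bp of the middle of the peak in 4 of these higher in CIH and in 2 higher in RA, those of Dnajb9 and Olfr9. These features were noticed in the sequences and then counted, and their part in the direction was not tested.

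Few of the peaks resembled the CpG islands at which Polycomb is best known to act. The median GC content, with N left out, was 38% for CIH peaks on H3K9ac and 38.3% for CIH peaks off it, and 44.8% for RA peaks off it. A GC content of at least 50% was found in 4 of 40 CIH peaks (10%, 2.79 to 23.7%) and in 24 of 77 RA peaks (31.2%, 21.1 to 42.7%). The ratio of CpG found to CpG expected from base content had a median of 0.111 (0.0581 to 0.188) in CIH and 0.186 (0.109 to 0.242) in RA. No CpG at all was present in 13 of the 40 and 12 of the 77.

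With a GC content of at least 50% and a CpG ratio of at least 0.6 as the definition of CpG-rich, 1 peak of 117 qualified, the RA peak of Srrm4. Its GC content was 61.2% and its CpG ratio 0.684, and 25 CpG stood in its 400 letters. The CIH peak of Grin2d and Kdelr1 had a GC content of 57.6% and a CpG ratio of 0.242. The RA peak of the coactivator gene Ncoa5 had a GC content of 65.4% and a ratio of 0.423, with the first 399 letters held.

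No sequence of a peak matched the promoter of its paired gene. Of the 145 genes, 110 had a promoter sequence in RefSeq (build GRCm38.p6), from 250 bases before to 50 bases after the start, and they were paired with 97 peaks. None of these peaks shared 25 bases in a row, on either strand, with the promoter of a gene it was paired with. Among all 32851 promoters, 6 peaks shared 25 bases with any. Between peaks, the 1 pair that shared 25 bases was Atp6ap1l and Morc1. The search covers that window and the letters held, and other start sites were not searched.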

How the data were processed

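H3K27me3 and H3K9ac were measured by ChIP-Seq, with 1 library per mark and exposure. The submitters' processing notes name build mm9 and MACS2 2.1.0, BWA 0.7.12, bedtools 2.23.0, Trimmomatic 0.32, Picard 1.121 and SAMtools 1.2. The study's methods state that filters took out low complexity and blacklisted sequence and that more than 1 peak tool was used. For each mark the authors deposited a list of differential peaks that holds position, name, sign and a score, which is 1000 throughout, so a threshold on the score could not be run. The sign was read from the supplementary list, of which the counts and p-values were not used. Depth per library was not used here.

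Overlaps (at least 1 bp), neighbours, sequence features and exact Clopper-Pearson 95% intervals were computed with Python 3.11.15 and scipy 1.17.1, after the functions had been tested on simulated data. The copy of the supplementary list cuts sequences at 400 letters, which shortened 19. Of 145 symbols, 142 matched RefSeq. Genes were named when their peak lay on an H3K9ac peak, touched an opposite peak, or belonged to a class or list, with the widest peaks as examples where a group had more than 8. Some items of the lists are not reported here. Members, classes and lists were chosen with earlier results of these data known. Peaks with runs of 1 base or N letters were named after their values were seen.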

Additional observations from a re-analysis of the deposited data

How the results depend on the processing

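Of 47 alternative settings over 27 values, 41 left the value within its interval or, for a count, within 1.5 times. The share of peaks higher in CIH was 32.5 to 37.9% under 5 alternatives (peaks of at least 250 bp, autosomes, covered bases, opposite touching peaks left out, paired peaks) and fell to 21.2% without the peaks on H3K9ac, a setting chosen after seeing the data. Runs of at least 10 of 1 base, in place of 12, were held by 11 peaks higher in RA, and runs of at least 14 by 3 higher in CIH and 4 higher in RA, also chosen after seeing the data. With peaks paired with 1 gene only, the share in CIH was 0% for ribosome, RNA and transcription genes and 0% for skin and muscle structure, on 5 peaks and 1 peak. With H3K9ac peaks within 1 kb counted, 29 CIH and 5 RA peaks qualified. The stricter score could not be run. No replicate could be left out and there is no replicate error, and with no input control, enrichment over background was not checked. No paired analysis was possible because each group has 1 library and the result comes from no test.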
